A study of Homo sapiens with 60 samples.

Results

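The aryl hydrocarbon receptor pathway of HT29 cells was followed here through 6 genes: the receptor AHR, its partner ARNT, the feedback genes AHRR and TIPARP, and the enzyme genes ALDH3A1 and UGT1A6. The members were found by their Ensembl identifiers among the 60675 identifiers of a table of estimated read counts, 1 row each, and all 6 passed the filter on low counts. HT29 is a cell line that was established from a human colorectal adenocarcinoma. All cells were of this line, kept in serum-containing medium, and were given hot-water extracts for 24 h, made from Menthae Herba (mint) or Saposhnikoviae Radix, which are single herbs, or from the multi-herb formulas Soshiho-tang, Okbyeongpung-san, Soyo-san, Guibi-tang or Saengmaek-san, at 20 (low), 100 (medium) or 500 (high) µg/mL, or DMSO (vehicle). Each dose of Soshiho-tang had 1 library, and each dose of the 6 other extracts, like vehicle, had 3. The DMSO percentage differs between the sample labels and the series' design text, and whether extract-treated cells also received DMSO is not given in the sources used here. Each extract is a mixture, so a response belongs to the extract and to no single compound.

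AHR is a ligand-activated transcription factor that waits in the cytoplasm with chaperones, enters the nucleus when a planar aromatic ligand binds, pairs with ARNT, and binds DNA at sites holding the core GCGTG. In the gut it senses plant and microbial ligands, and its best known output is the CYP1 family of oxidising enzymes. AHRR resembles AHR, competes for ARNT and represses the targets. TIPARP (PARP7) is a mono-ADP-ribosyltransferase that is induced by AHR and dampens it. ALDH3A1 oxidises aldehydes, and UGT1A6 attaches glucuronic acid to planar phenols. Both are classic AHR targets, and UGT1A6 is also known as a target of NRF2, the regulator of the response to electrophiles. ARNT also partners the hypoxia-inducible factors.

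In GENCODE release 29 (GRCh38), AHR (ENSG00000106546) spans chr7:16916359-17346152 on the plus strand and ARNT (ENSG00000143437) chr1:150809705-150876768 on the minus strand. AHRR (ENSG00000063438, chr5:304176-438291, plus strand) overlaps the neighbouring gene PDCD6, and TIPARP (ENSG00000163659, chr3:156673235-156706770, plus strand) meets an antisense gene at its start. ALDH3A1 (ENSG00000108602) lies at chr17:19737984-19748943 on the minus strand. UGT1A6 (ENSG00000167165) lies at chr2:233691607-233773300 on the plus strand, inside the UGT1A locus, whose genes share their last exons. Reads from such shared or overlapping stretches were divided by the authors' counting, and the strand setting is not given in the sources used here, so AHRR, TIPARP and UGT1A6 values carry that uncertainty.

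RefSeq (GRCh38.p14) promoter rows were matched for 5 of the 6 members, with 9 start sites in all; ALDH3A1 had none. The 250 bases before a start are printed for TIPARP, UGT1A6 and AHRR, the targets whose sequence holds the AHR-ARNT core, and for AHR itself, which lacks it. Capitals mark the core GCGTG, or CACGC where it lies on the opposite strand. All 4 are on the plus strand, at chr3:156674340-156674589 for TIPARP, chr2:233691452-233691701 for UGT1A6, chr5:321464-321713 for AHRR and chr7:17298402-17298651 for AHR.
TIPARP: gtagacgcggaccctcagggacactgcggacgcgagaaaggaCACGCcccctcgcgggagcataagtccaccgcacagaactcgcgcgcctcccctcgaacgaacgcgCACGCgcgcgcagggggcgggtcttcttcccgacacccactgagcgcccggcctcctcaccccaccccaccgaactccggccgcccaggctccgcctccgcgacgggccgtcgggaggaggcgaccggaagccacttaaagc
UGT1A6: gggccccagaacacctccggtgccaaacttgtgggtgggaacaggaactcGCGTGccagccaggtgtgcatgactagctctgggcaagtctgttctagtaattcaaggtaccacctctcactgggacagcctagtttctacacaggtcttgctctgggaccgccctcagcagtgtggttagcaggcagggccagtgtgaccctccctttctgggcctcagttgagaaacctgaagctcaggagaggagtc
AHRR: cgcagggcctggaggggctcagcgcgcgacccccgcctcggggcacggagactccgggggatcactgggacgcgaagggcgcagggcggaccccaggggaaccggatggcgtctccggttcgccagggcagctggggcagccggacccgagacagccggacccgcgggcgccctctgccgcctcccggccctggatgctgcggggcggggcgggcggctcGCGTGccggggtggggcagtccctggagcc
AHR: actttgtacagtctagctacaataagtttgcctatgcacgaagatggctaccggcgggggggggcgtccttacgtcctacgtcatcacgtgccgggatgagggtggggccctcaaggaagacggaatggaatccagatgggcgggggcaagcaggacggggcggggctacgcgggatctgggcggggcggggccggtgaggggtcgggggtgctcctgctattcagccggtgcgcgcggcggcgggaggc

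The TIPARP stretch holds the core at 208 and 142 bases before the start, the UGT1A6 stretch at 200 and the AHRR stretch at 30. A second AHRR start also holds it, at 247 and 42 bases. The promoters of ARNT, the second UGT1A6 start and the other TIPARP starts hold none. The core, read on both strands, was found in 32.2% of all 35116 RefSeq promoter rows of this length, so its presence in 4 of the 9 members' rows is a description and marks no binding site. The antioxidant response element core TGACNNNGC, the motif of NRF2 with its small Maf partners, was found in the ARNT row at 183 bases and in the second UGT1A6 row at 98 bases before the start. It occurs in 10.9% of all promoter rows, and the members' rows that hold it lack the AHR-ARNT core.

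Total counts per library were 19500000 to 41900000 (median 29200000). Values are given as CPM, counts scaled to a common library total with TMM factors. No label tells whether the replicates were separate cultures. The p-values therefore measure library-to-library spread that may be only technical, and more expressing cells cannot be told apart from more RNA per cell. On the first principal component, 11.6% of the variance, the libraries parted at 1 point of the numbering of their names, into 31 earlier-numbered and 29 later-numbered ones. What the numbering stands for is not given in the sources used here. Vehicle and both single herbs were all earlier, Soyo-san and Okbyeongpung-san all later, and Saengmaek-san and Guibi-tang mixed. A gene is named as called where its edgeR quasi-likelihood p, adjusted by Benjamini-Hochberg over all 17049 genes tested, is under 0.05. With the groups in the same fit, AHR was the only 1 of the 6 members called between the parts, 0.11 ± 0.03 (SE) lower on the log2 scale in the later libraries (edgeR adjusted p = 0.00336), where 29.6% of all genes were called. Of 10 colonic epithelial markers 7 had a median of at least 157 CPM, with EPCAM at 503 CPM, but CDX1 (0.84 CPM), GPA33 (2.81 CPM) and CDX2 (3.95 CPM) were low. The summed level of 12 markers of other cell types was 4.68 to 5.34 CPM in the Menthae Herba high libraries and 6.14 to 6.58 CPM in the vehicle libraries, most of it from CD14, COL1A1 and PECAM1, which were above 0 in every library (medians of 2.96, 1.42 and 1.15 CPM). ALB was at 0 in 57 and CD3E in 50 of the 60 libraries. Of these markers 3 passed the filter on low counts, with a median log2 difference of -0.29 for high-dose Menthae Herba over vehicle; their part in the results was not tested.

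Per kilobase of exon, the median over 57 libraries was 17 CPM for TIPARP, 15.6 for AHR, 9.4 for UGT1A6, 7.01 for ALDH3A1, 4.96 for ARNT and 0.806 for AHRR. The receptor transcript was thus far more abundant than that of its repressor. At the gene level AHRR had 111 to 275 counts per library, the least of the 6, so its values carry the largest counting error. Over all 19 groups, an edgeR quasi-likelihood F test found a difference for 4 members: TIPARP (adjusted p = 3.67e-11), ALDH3A1 (6.83e-10), UGT1A6 (2.55e-08) and AHRR (3.95e-04). It called 24.6% of all genes. AHR had an adjusted p of 0.0513 and ARNT one of 0.388 in that test. The AHR value passed under 4 alternatives, with no filter on low counts (0.00338), size factors of DESeq2 (0.0476), DESeq2's own test (0.0102) and a term for the replicate number (0.0252), but had adjusted p = 0.402 with a term for the part of the numbering. AHRR lost its call in the earlier-numbered libraries alone (0.101). That setting leaves out every Soyo-san and Okbyeongpung-san group. Among these are the highest AHRR means, 7.36 CPM in low-dose Soyo-san and 7.03 CPM in high-dose Okbyeongpung-san, so it cannot check differences that involve them.

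**Figure D1:**
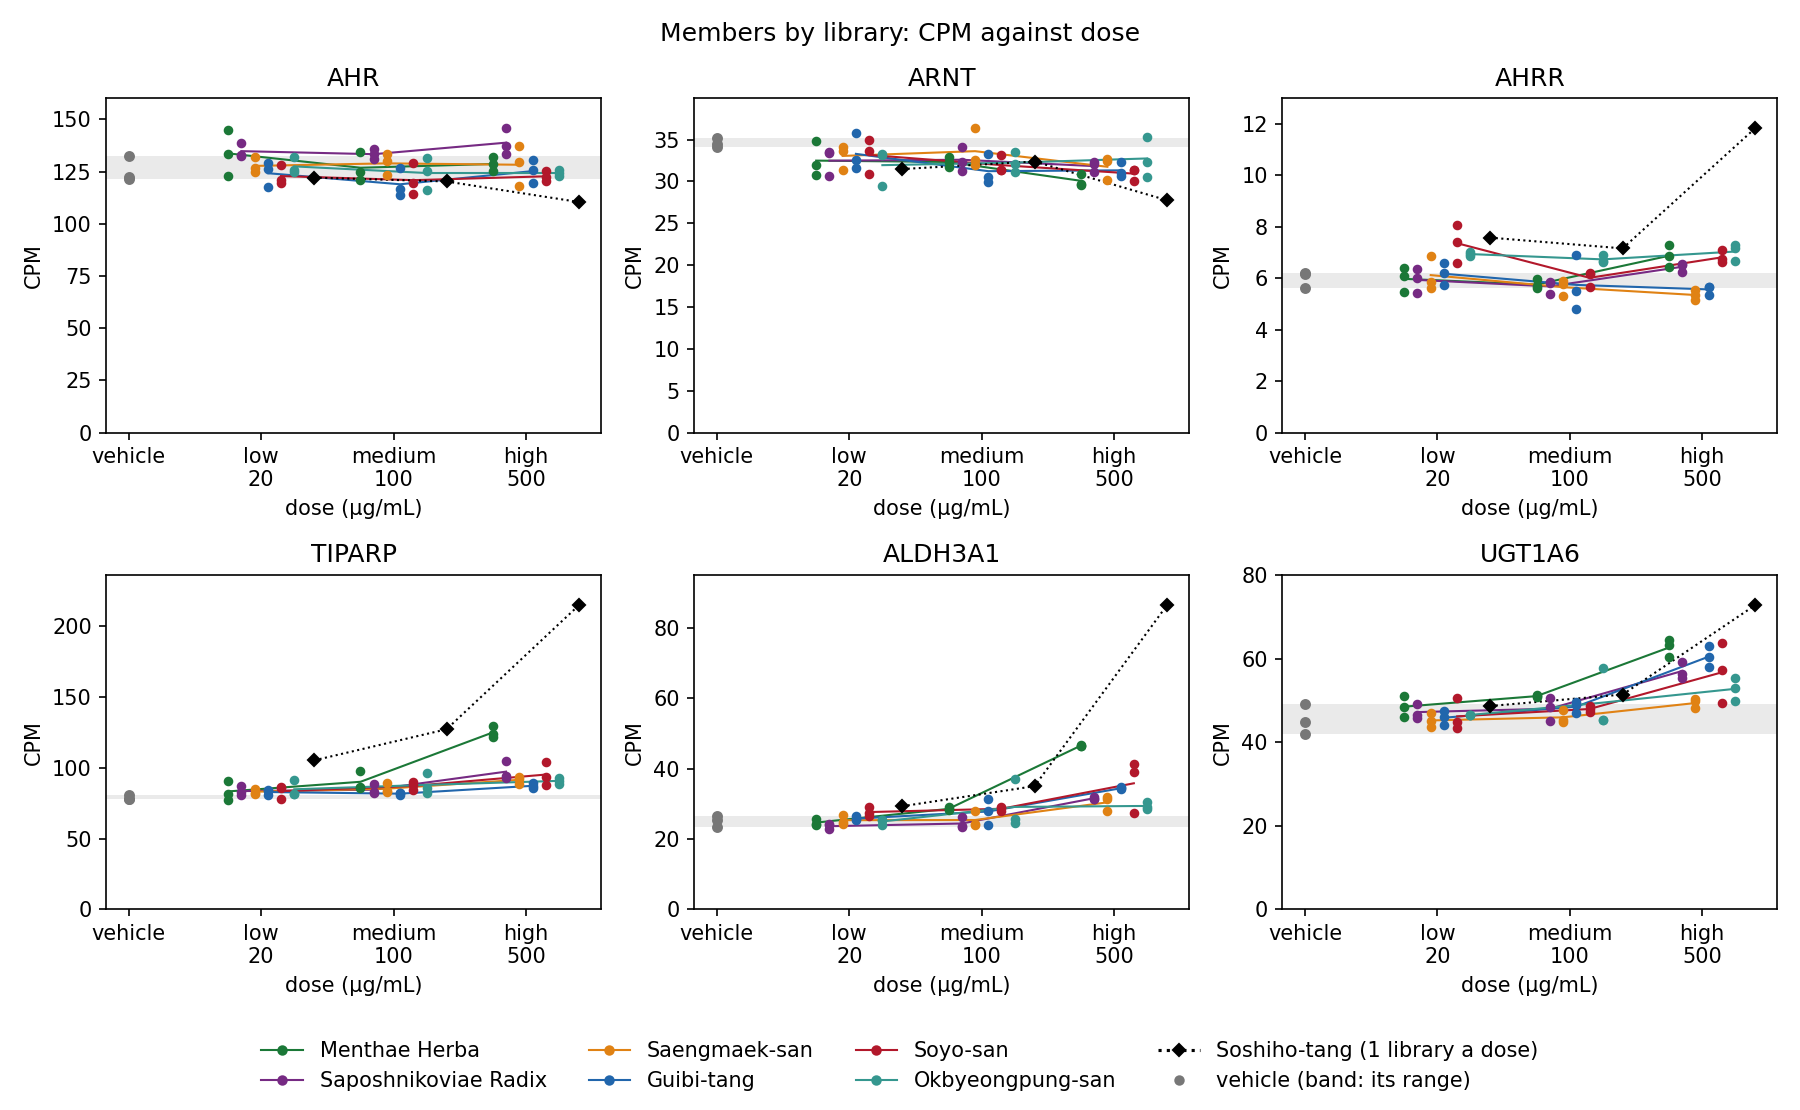
CPM of the 6 genes in every library against dose (µg/mL, spaced evenly), with vehicle at the left, lines through the group means the vehicle range as a grey band and black diamonds for the single Soshiho-tang libraries. At the high dose TIPARP and ALDH3A1 lay above the vehicle range in 18 of 18 replicated libraries each, AHR crossed it, and the single Soshiho-tang library at the high dose reached 215 CPM of TIPARP.

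Of 108 tests of a member against vehicle (6 members, 18 comparisons), edgeR called 15: 14 higher and 1 lower. At the high dose 14 of 36 tests were called. At the medium dose 0 of 36 were called by edgeR in the fit over all groups, with 6 at an unadjusted p under 0.05 and 1 called by DESeq2, TIPARP with Menthae Herba. At the low dose 1 of 36 was called, AHRR with Soyo-san; the percentages of all genes called at that dose were 0.0587 for Menthae Herba, 0.17 for Saposhnikoviae Radix, 0.0938 for Saengmaek-san, 0.85 for Guibi-tang, 3.93 for Soyo-san and 8.79 for Okbyeongpung-san. All 18 comparisons share the same 3 vehicle libraries, so a vehicle level that is off by chance enters each of them. Members called numbered 4 with high-dose Menthae Herba (8.57% of all genes tested were called), 2 with Saposhnikoviae Radix (0.499%), 1 with Saengmaek-san (4.28%), 2 with Guibi-tang (2.26%), 3 with Soyo-san (14.5%) and 2 with Okbyeongpung-san (7.4%).

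**Figure D2:**
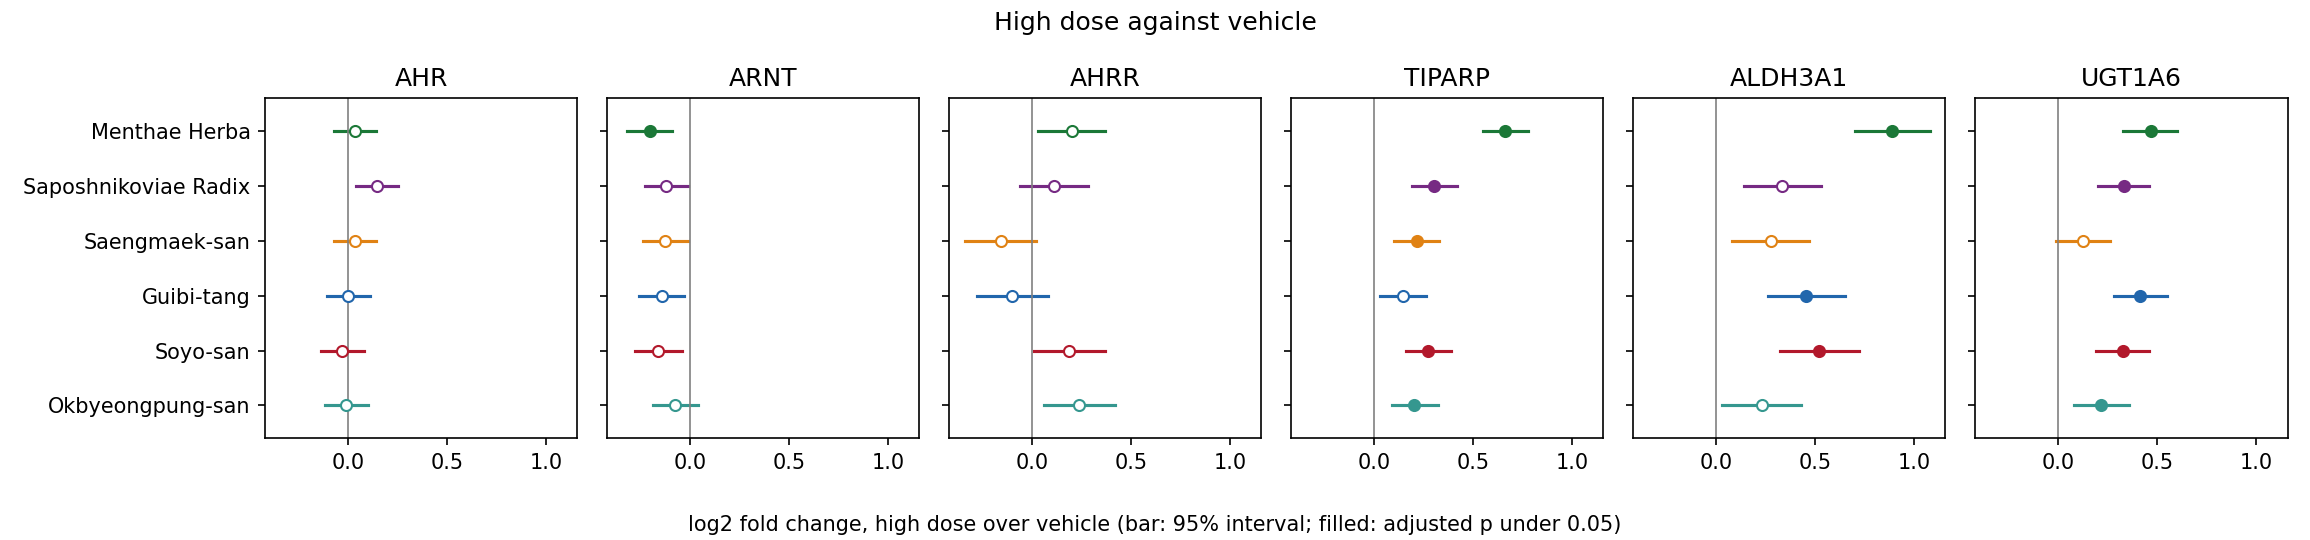
log2 fold change of each gene at the high dose of 6 extracts over vehicle, with 95% intervals as bars and filled points where edgeR's adjusted p is under 0.05. TIPARP is filled for 5 extracts, UGT1A6 for 5, ALDH3A1 for 3, ARNT for 1 and AHR and AHRR for none.

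The receptor gene itself was called in no extract or dose group in the edgeR fit over all groups. AHR had 146, 137 and 134 CPM with high-dose Saposhnikoviae Radix, against 122, 121 and 132 CPM in vehicle libraries. These groups do not overlap, and the log2 difference was 0.15 ± 0.05 (SE; edgeR adjusted p = 0.246). In a fit on these groups alone it was called, at 0.15 ± 0.04 (adjusted p = 0.041). With high-dose Menthae Herba AHR had 128, 132 and 125 CPM, which overlaps vehicle, and a log2 difference of 0.04 with a 95% interval of -0.07 to 0.14. Over the 18 comparisons the log2 difference lay between -0.08 and 0.15, with 0 called by edgeR, 1 at an unadjusted p under 0.05 and 0 by DESeq2. Group means ran from 119 ± 6.76 CPM (Guibi-tang medium) to 139 ± 6.2 CPM (Saposhnikoviae Radix high; SD, n = 3 each), with vehicle at 125 ± 6.08 CPM. The 3 Saposhnikoviae Radix groups and low-dose Menthae Herba held the 4 highest means. Neighbouring means in this order differed by less than the larger of their SDs. All libraries of the 4 highest groups were earlier-numbered, and AHR was called lower in the later-numbered libraries. With a term for the part of the numbering, the difference of medium-dose Guibi-tang from vehicle moved from -0.08 to -0.01. That of low-dose Okbyeongpung-san moved from 0.02 to 0.13, and 0 of the 18 comparisons of AHR were called.

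ARNT, the partner, was lower with high-dose Menthae Herba than in vehicle. It had 29.7, 30.9 and 29.6 CPM there, against 35.3, 34.5 and 34.1 CPM in vehicle libraries. Every Menthae Herba library lay below every vehicle library, and the log2 change was -0.20 ± 0.06 (SE; edgeR adjusted p = 0.0166). The call ended without vehicle replicate 1 or high-dose Menthae Herba replicate 1 or 3 (adjusted p = 0.0698, 0.059 and 0.0559). With high-dose Soyo-san ARNT had 31.4, 31.3 and 30.1 CPM and a log2 difference of -0.16 ± 0.06 (adjusted p = 0.0509). With a term for the part of the numbering this became -0.23 ± 0.06 (adjusted p = 0.018), and it was also called in a fit on these groups alone (0.0217) and by DESeq2 (0.0325). High-dose Menthae Herba held the lowest ARNT mean of the 19 groups, 30.1 ± 0.691 CPM, and vehicle the highest, 34.6 ± 0.572 CPM (SD, n = 3 each). Of the 18 high-dose libraries 17 lay below all vehicle libraries, of the medium-dose ones 16 and of the low-dose ones 14, a count that rests on the 3 vehicle values. Over the 18 comparisons with vehicle the log2 difference of ARNT lay between -0.20 and -0.05. Between the high and low dose of Menthae Herba, whose libraries overlap, it was -0.11 ± 0.06 and was not called (edgeR adjusted p = 0.421).

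TIPARP rose at the high dose of 5 of the 6 replicated extracts. With high-dose Menthae Herba it had 129, 124 and 121 CPM, against 78.1, 77.9 and 80.6 CPM in vehicle libraries. The groups are far apart, at a log2 change of 0.66 ± 0.06 (SE), a 1.58-fold level (edgeR adjusted p = 2.34e-12), and the call held without any 1 of the 57 libraries. With Saposhnikoviae Radix TIPARP had 104, 94.3 and 92.9 CPM, also above every vehicle library. That log2 change was 0.30 ± 0.06 (adjusted p = 0.00292; 0.0873 without Saposhnikoviae Radix replicate 1).

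Of the 4 replicated formulas, 3 raised TIPARP. Soyo-san gave 104, 93.7 and 87.9 CPM at the high dose, a log2 change over vehicle of 0.27 ± 0.06 (edgeR adjusted p = 9.16e-04). Saengmaek-san gave 92.2, 93.5 and 88.7 CPM and 0.21 ± 0.06 (adjusted p = 0.0216). The Saengmaek-san call ended without vehicle replicate 1 or 2 or high-dose Saengmaek-san replicate 2 (adjusted p = 0.116, 0.0705 and 0.135) and in a fit on these groups alone (0.12). All 6 of these libraries lay above every vehicle library. Okbyeongpung-san gave 92.9, 90.8 and 88.5 CPM and 0.20 ± 0.06 (adjusted p = 0.0231). This call ended with the term for the part of the numbering (0.22 ± 0.07, adjusted p = 0.0532) and without vehicle replicate 1 or 2 or high-dose Okbyeongpung-san replicate 1 or 2 (adjusted p between 0.0699 and 0.101). Guibi-tang gave 88.9, 86.9 and 85.9 CPM, above every vehicle library, but its difference of 0.15 ± 0.06 was not called (adjusted p = 0.179).

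In the order of the 19 group means, TIPARP in high-dose Menthae Herba (125 ± 4.17 CPM; SD, n = 3) stood well above the next group, high-dose Saposhnikoviae Radix (97.2 ± 6.32 CPM). High-dose Soyo-san (95.2 ± 8.07 CPM), Saengmaek-san (91.5 ± 2.5 CPM) and Okbyeongpung-san (90.7 ± 2.18 CPM) followed, each differing from its neighbour by less than the larger SD. Medium-dose Guibi-tang, at 81.7 ± 0.731 CPM, and vehicle, at 78.9 ± 1.46 CPM, closed the order, further apart than the larger SD. All 18 medium-dose libraries of TIPARP, between 80.9 and 97.9 CPM, lay above all 3 vehicle libraries, whose highest value was 80.6 CPM, and 0 of the 6 medium-dose comparisons of TIPARP were called by edgeR in the fit over all groups. The lowest adjusted p was that of medium-dose Soyo-san, 0.0937 at 0.14 ± 0.06, and the largest difference that of medium-dose Menthae Herba, 0.19 ± 0.06 (adjusted p = 0.105). TIPARP with medium-dose Menthae Herba was called in a fit on these groups alone (0.0205) and in the earlier-numbered libraries alone (0.035). So were ALDH3A1 (0.0448 and 0.0236) and UGT1A6 (0.0489 and 0.045) with this extract and dose. Medium-dose Soyo-san was called in the fit on its groups alone for TIPARP (0.0458) and ALDH3A1 (0.0434). With a term for the replicate number, TIPARP was called at the medium dose of Menthae Herba (0.0188), Soyo-san (0.0268) and Okbyeongpung-san (0.0304). The percentages of all genes called at the medium dose were 0.739 for Menthae Herba, 0.0293 for Saposhnikoviae Radix, 0.416 for Saengmaek-san, 1.07 for Guibi-tang, 9.87 for Soyo-san and 3.75 for Okbyeongpung-san.

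AHRR, the repressor, was called in 1 comparison, low-dose Soyo-san. It had 8.08, 7.41 and 6.58 CPM there, against 6.22, 5.6 and 6.15 CPM in vehicle libraries. The libraries do not overlap, and the log2 change was 0.30 ± 0.09 (SE; edgeR adjusted p = 0.0369). The call ended with the term for the part of the numbering (0.27 ± 0.10, adjusted p = 0.135), with DESeq2 (0.0513), with no filter on low counts (0.141), in a fit on these groups alone (0.0677), without any 1 of the 3 vehicle libraries, and without low-dose Soyo-san replicate 1 or 2 (adjusted p between 0.0645 and 0.178).

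High-dose Menthae Herba gave AHRR levels of 7.31, 6.44 and 6.87 CPM, all above vehicle. The log2 difference was 0.20 ± 0.09 and was not called (edgeR adjusted p = 0.141). High-dose Okbyeongpung-san gave 7.27, 7.16 and 6.67 CPM and 0.24 ± 0.09 (adjusted p = 0.0892). High-dose Saengmaek-san gave 5.55, 5.15 and 5.34 CPM, all below vehicle, and -0.16 ± 0.09 (adjusted p = 0.334). AHRR group means ran from 5.35 ± 0.201 CPM in high-dose Saengmaek-san to 7.36 ± 0.75 CPM in low-dose Soyo-san (SD, n = 3 each). The 6 highest means held all 3 Okbyeongpung-san groups, whose means of 6.94 ± 0.0738, 6.73 ± 0.161 and 7.03 ± 0.321 CPM at the low, medium and high dose differed little from each other. These libraries are all later-numbered and the vehicle libraries all earlier-numbered, and with the term for the numbering the AHRR difference of high-dose Okbyeongpung-san from vehicle was 0.21 ± 0.11 (adjusted p = 0.37).

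ALDH3A1, the aldehyde dehydrogenase, had the highest ratio of its highest to its lowest library among the 6 genes. High-dose Menthae Herba gave 46.5, 46.9 and 46.4 CPM, against 26.5, 25.3 and 23.5 CPM in vehicle libraries. The 3 treated libraries agree closely and lie far above vehicle, at a log2 change of 0.89 ± 0.09 (SE), a 1.85-fold level (edgeR adjusted p = 3.94e-09). Guibi-tang gave 34.7, 34.2 and 34.5 CPM, a log2 change of 0.46 ± 0.10 (adjusted p = 0.0045). Soyo-san gave 41.4, 38.9 and 27.3 CPM, a log2 change of 0.52 ± 0.10 (adjusted p = 3.33e-04). Replicate 3 of Soyo-san was far below the other 2 and just above the highest vehicle library; without it the change was 0.68 (adjusted p = 4.68e-07), and in a fit on these groups alone it lost its call (0.52 ± 0.17, adjusted p = 0.117).

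The other extracts gave ALDH3A1 levels above all vehicle libraries at the high dose, without a call in the fit over all groups. They were 32, 31.4 and 31.5 CPM with Saposhnikoviae Radix (log2 difference 0.33 ± 0.10, edgeR adjusted p = 0.113), 31.8, 28 and 31.5 CPM with Saengmaek-san (0.28 ± 0.10, adjusted p = 0.0954) and 30.7, 29.2 and 28.4 CPM with Okbyeongpung-san (0.23 ± 0.10, adjusted p = 0.154). Other settings called them. Saposhnikoviae Radix was called in a fit on these groups alone (6.11e-04), in the earlier-numbered libraries alone (7.18e-05) and with no filter on low counts (8.48e-05), Saengmaek-san in the earlier-numbered libraries alone (0.00369) and with no filter (0.0056), and Okbyeongpung-san in the fit on its groups alone (0.0313) and with no filter (0.0321). With no filter the SE of these differences was 0.06 to 0.07, against 0.10 with the filter. The edgeR F test over all groups gave ALDH3A1 an adjusted p of 7.84e-104 with no filter, against 6.83e-10. The calls with no filter thus rest on a smaller estimate of the spread of ALDH3A1, and why it was smaller was not tested. Of the 18 high-dose libraries 18 lay above all vehicle libraries, of the medium-dose ones 10 and of the low-dose ones 4. In the order of means Menthae Herba (46.6 ± 0.247 CPM; SD, n = 3) was followed by Soyo-san (35.9 ± 7.53), Guibi-tang (34.4 ± 0.297), Saposhnikoviae Radix (31.6 ± 0.3), Saengmaek-san (30.4 ± 2.16) and Okbyeongpung-san (29.4 ± 1.14 CPM), all at the high dose. Soyo-san and Guibi-tang differed by less than the spread of Soyo-san, and likewise Saposhnikoviae Radix and Saengmaek-san by less than that of Saengmaek-san. Vehicle was fifteenth of 19 at 25.1 ± 1.51 CPM, within 1 SD of the low-dose groups of Menthae Herba (24.7 ± 0.961 CPM) and Okbyeongpung-san (25 ± 0.797 CPM).

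UGT1A6, the glucuronosyltransferase, rose at the high dose of 5 extracts. Menthae Herba gave 64.4, 63.2 and 60.4 CPM, against 49.2, 42.1 and 45 CPM in vehicle libraries. The log2 change was 0.47 ± 0.07 (SE), a 1.38-fold level (edgeR adjusted p = 1.38e-06), with no overlap. Guibi-tang gave 63.1, 58 and 60.3 CPM and 0.41 ± 0.07 (adjusted p = 3.99e-05). The Menthae Herba and Guibi-tang levels of UGT1A6 overlap, unlike those of TIPARP.

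With Saposhnikoviae Radix UGT1A6 had 56.4, 59.3 and 55.5 CPM at the high dose, a log2 change over vehicle of 0.33 ± 0.07 (edgeR adjusted p = 0.0066). This call ended without vehicle replicate 2 or Saposhnikoviae Radix replicate 2 (adjusted p = 0.0884 and 0.0703). With Soyo-san it had 63.6, 57.2 and 49.4 CPM, and 0.33 ± 0.07 (adjusted p = 7.57e-04; 0.0571 in a fit on these groups alone). Replicate 3 of Soyo-san was again the lowest and next to the highest vehicle library. With Okbyeongpung-san it had 53, 49.9 and 55.5 CPM, and 0.22 ± 0.07 (adjusted p = 0.0391). The Okbyeongpung-san call ended with the term for the part of the numbering (0.21 ± 0.08, adjusted p = 0.161), without vehicle replicate 2 or 3, high-dose Okbyeongpung-san replicate 1 or 3 or high-dose Soyo-san replicate 2 (adjusted p up to 0.187). Saengmaek-san gave 50.3, 49.8 and 48.1 CPM, which overlaps vehicle, and no call (0.12 ± 0.07, adjusted p = 0.306).

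The order of UGT1A6 means was Menthae Herba (62.7 ± 2.08 CPM; SD, n = 3), Guibi-tang (60.5 ± 2.55), Saposhnikoviae Radix (57 ± 1.99), Soyo-san (56.7 ± 7.12) and Okbyeongpung-san (52.8 ± 2.79), all at the high dose, then medium-dose Menthae Herba (51 ± 0.301 CPM). Menthae Herba and Guibi-tang, and Saposhnikoviae Radix and Soyo-san, differed by less than the larger SD. Of the 18 high-dose libraries of UGT1A6, 17 lay above all vehicle libraries. Vehicle was eighteenth at 45.4 ± 3.57 CPM. Because the UGT1A genes share exons, their 9 rows were also summed. The sum was 685 ± 16 CPM with high-dose Menthae Herba and 534 ± 7.17 CPM in vehicle (SD, n = 3 each), and UGT1A6 made up 7.83% to 10.3% of it over the replicated groups. The summed locus was called higher at the high dose of the same extracts except Okbyeongpung-san (0.11, adjusted p = 0.0895), and also with Saengmaek-san (0.18 ± 0.04, adjusted p = 0.00753).

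Dose was tested within each extract as high against low, 36 tests of which 6 were called, all higher. With Menthae Herba 3 members were called, where 2.36% of all genes were: ALDH3A1 by 0.92 ± 0.09 on the log2 scale (edgeR adjusted p = 3.04e-09), TIPARP by 0.58 ± 0.06 (1.47e-10) and UGT1A6 by 0.37 ± 0.07 (1.62e-04). ALDH3A1 had 46.5, 46.9 and 46.4 CPM at the high dose and 24.2, 24.1 and 25.8 CPM at the low dose. At the medium dose it had 28.5, 29.1 and 28.2 CPM, so most of the rise lay between 100 and 500 µg/mL. TIPARP likewise had 77.6 to 90.9 CPM at the low dose, 85.8 to 97.9 CPM at the medium dose and 121 to 129 CPM at the high dose.

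With Guibi-tang 2 members were called at high against low dose, where 0.352% of all genes were. UGT1A6 had 63.1, 58 and 60.3 CPM at the high dose and 44.1, 47.4 and 46.1 CPM at the low dose, a log2 change of 0.40 ± 0.07 (edgeR adjusted p = 5.53e-04; 0.0552 in a fit on these groups alone). ALDH3A1 had 34.7, 34.2 and 34.5 CPM against 25.4, 26.5 and 25.6 CPM, a change of 0.42 ± 0.10 (adjusted p = 0.0355). The ALDH3A1 call ended when any 1 of these 6 Guibi-tang libraries was left out (adjusted p between 0.0833 and 0.171). TIPARP differed by 0.07 ± 0.06 there, with a 95% interval of -0.04 to 0.19.

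With Soyo-san 1 member was called at high against low dose, where 0.129% of all genes were. UGT1A6 had 63.6, 57.2 and 49.4 CPM at the high dose and 50.5, 44.7 and 43.3 CPM at the low dose, which overlap, and the log2 change was 0.30 ± 0.07 (edgeR adjusted p = 0.046). The call ended when any of 20 of the 57 libraries was left out (adjusted p up to 0.776), in a fit on these groups alone (0.398) and with the UGT1A rows summed (0.22). With Saposhnikoviae Radix edgeR called 0 members at high against low dose, where 0.0293% of all genes were called, with 3 at an unadjusted p under 0.05 (TIPARP, ALDH3A1 and UGT1A6) and 1, ALDH3A1, called by DESeq2. The ALDH3A1 libraries, 32, 31.4 and 31.5 CPM at the high and 23.9, 24.3 and 22.8 CPM at the low dose, stood clear of each other at a log2 difference of 0.42 ± 0.10 (adjusted p = 0.167). ALDH3A1 was called there in a fit on these groups alone (5.63e-06), in the earlier-numbered libraries alone (2.53e-06) and with no filter on low counts (6.18e-08), and UGT1A6 likewise (0.00118, 0.00741 and 0.00145). TIPARP was called there with no filter (0.0211) and with a term for the replicate number (0.0116). That term also called TIPARP at high against low dose with Soyo-san (0.0482). With no filter ALDH3A1 was called with Soyo-san (7.69e-06) and Saengmaek-san (0.0343). In the fit over all groups ALDH3A1 was not called with Soyo-san (0.38 ± 0.10, edgeR adjusted p = 0.149) or Saengmaek-san (0.26 ± 0.10, 0.513). The SE of both was 0.07 with no filter. The Soyo-san libraries overlap, with 41.4, 38.9 and 27.3 CPM at the high and 29.1, 27.4 and 26.5 CPM at the low dose. Saengmaek-san and Okbyeongpung-san also had 0 members called by edgeR (0.0235% and 0.00587% of all genes) and 0 by DESeq2, with 3 and 2 members at an unadjusted p under 0.05.

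**Figure D3:**
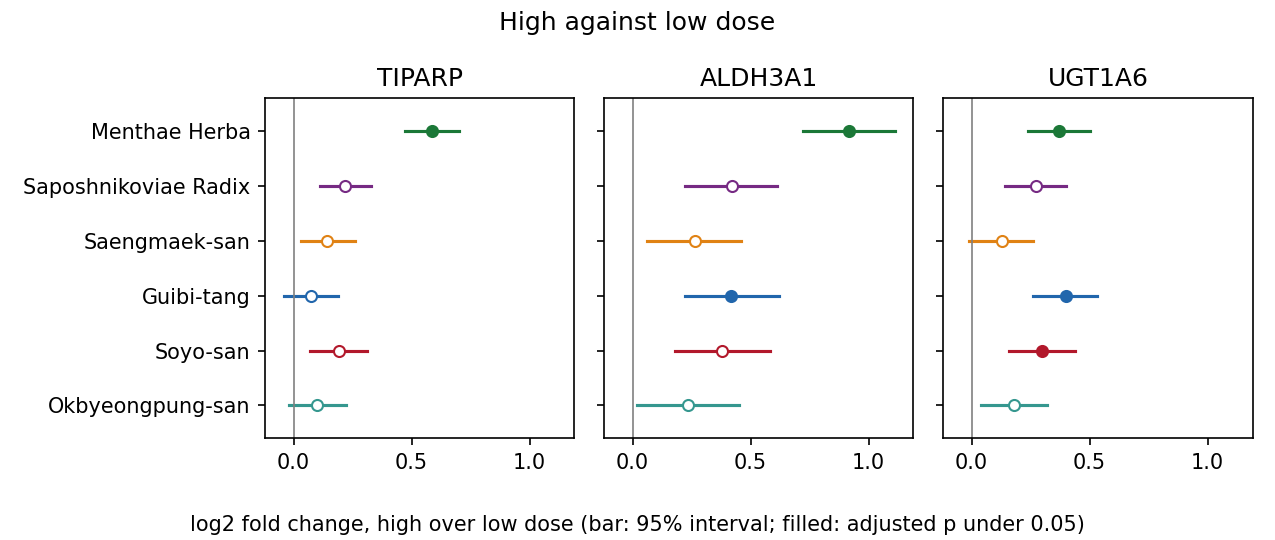
log2 fold change of TIPARP, ALDH3A1 and UGT1A6 at the high over the low dose of each extract, with 95% intervals as bars and filled points where edgeR's adjusted p is under 0.05. Menthae Herba lies at 0.58, 0.92 and 0.37, and Guibi-tang at 0.07, 0.42 and 0.40, so the 2 extracts part for TIPARP and come close for UGT1A6.

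Extracts were set against each other at matched doses in 9 comparisons, 54 tests, of which 3 were called, all at the high dose. Menthae Herba exceeded Saposhnikoviae Radix in 2 members, where 1.1% of all genes were called: TIPARP by 0.36 ± 0.06 on the log2 scale (edgeR adjusted p = 3.76e-05) and ALDH3A1 by 0.56 ± 0.09 (1.95e-04). For UGT1A6 the same pair of herbs differed by 0.14 ± 0.06 (95% interval 0.01 to 0.27; adjusted p = 0.51, or 0.0453 in a fit on these groups alone). UGT1A6 was higher with Guibi-tang than with Saengmaek-san by 0.29 ± 0.07 (adjusted p = 0.0259), where 0.37% of all genes were called. With the UGT1A rows summed this difference was 0.03 ± 0.04 (adjusted p = 1). The call also ended in a fit on these groups alone (0.167) and without any 1 of the 3 Saengmaek-san libraries or Guibi-tang replicate 1 or 3 (adjusted p between 0.055 and 0.204). Soyo-san and Okbyeongpung-san, both later-numbered throughout, gave 0 calls among the members at any dose by edgeR and by DESeq2, as did all 3 pairs at the medium and low dose. Soyo-san against Okbyeongpung-san had 1 test with an unadjusted p under 0.05, that of ALDH3A1 at the high dose (0.29 ± 0.10 on the log2 scale, edgeR adjusted p = 1, or 0.00748 with no filter on low counts), where 0% of all genes were called. The medium dose had another 2 such tests, ALDH3A1 between the herbs (0.00587% of all genes called) and AHR between Guibi-tang and Saengmaek-san (0.393%), and the low dose had 0.

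Whether the dose response differed between extracts was tested as a difference of high-minus-low differences, 90 tests over 15 pairs of extracts. Of these, 7 were called, all for TIPARP or ALDH3A1 and all with Menthae Herba as the larger, so they share its 6 libraries. Without high-dose Menthae Herba replicate 1 or 2 the count was 4, and without low-dose replicate 2 it was 3. For TIPARP the Menthae Herba response exceeded that of Guibi-tang by 0.51 ± 0.08 (SE, log2; edgeR adjusted p = 3.31e-04; 0.0938% of all genes called), of Okbyeongpung-san by 0.49 ± 0.08 (8.49e-04; 0.188%), of Saengmaek-san by 0.44 ± 0.08 (0.00305; 0.0821%), of Soyo-san by 0.39 ± 0.08 (0.0222; 0.0704%) and of Saposhnikoviae Radix by 0.36 ± 0.08 (0.0388; 0.0763%). The first 3 held without any 1 of the 57 libraries; in fits on the groups compared alone those against Saengmaek-san, Soyo-san and Saposhnikoviae Radix had adjusted p of 0.0568, 0.252 and 0.111. The difference from Soyo-san ended without any of 8 libraries, all of Menthae Herba or Soyo-san (adjusted p up to 0.244), and that from Saposhnikoviae Radix without any of 33 (up to 0.326).

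For ALDH3A1 the Menthae Herba response exceeded that of Okbyeongpung-san by 0.68 ± 0.14 (edgeR adjusted p = 0.0169) and that of Saengmaek-san by 0.65 ± 0.14 (0.0298). The first ended without low-dose Menthae Herba replicate 1 or 2, high-dose Okbyeongpung-san replicate 2 or low-dose Okbyeongpung-san replicate 2 or 3 (adjusted p up to 0.0589). The other ended without any of 9 of the 12 Menthae Herba and Saengmaek-san libraries compared (up to 0.138). The ALDH3A1 responses of Menthae Herba and Saposhnikoviae Radix differed past the threshold in a fit on these groups alone (1.13e-04), in the earlier-numbered libraries alone (1.38e-04) and with no filter on low counts (2.82e-05). Those of Menthae Herba and Guibi-tang did so in the fit on these groups alone (0.00568) and with no filter (1.54e-05), and those of Menthae Herba and Soyo-san with no filter (2.39e-06). The SE of these differences was 0.09 with no filter and 0.14 with the filter. In the other 10 pairs, those without Menthae Herba, 0 members were called by edgeR or DESeq2 and 4 tests had an unadjusted p under 0.05, with at most 0.0117% of all genes called. For UGT1A6 0 of 15 differences were called by edgeR or DESeq2, with 3 at an unadjusted p under 0.05. The Menthae Herba and Guibi-tang responses of UGT1A6 differed by -0.03, with a 95% interval of -0.22 to 0.16, while those of TIPARP differed by 0.51 with an interval of 0.35 to 0.67.

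A pair of libraries stood apart from their groups in several members at once. High-dose Soyo-san replicate 3 was the lowest of its group in TIPARP, ALDH3A1 and UGT1A6, and also in CYP1A1, with 2.2, 2.38 and 1.09 CPM in the 3 replicates, and in CYP1B1, with 66.5, 67.1 and 51 CPM. Medium-dose Okbyeongpung-san replicate 1 was the highest of its group in the same genes, with 37.1 CPM of ALDH3A1 against 25.8 and 24.5 CPM in replicates 2 and 3, 96.1 CPM of TIPARP against 82.2 and 85.4 CPM, 57.8 CPM of UGT1A6 against 45.3 CPM in both, and 1.59 CPM of CYP1A1 against 0.78 and 0.375 CPM. Its ALDH3A1, UGT1A6, TIPARP and CYP1A1 levels exceeded those of every high-dose Okbyeongpung-san library, but its CYP1B1 level of 58 CPM did not exceed the 59.7 CPM of high-dose replicate 1. What set these libraries apart was not tested. Without the Okbyeongpung-san library the count of members called against vehicle was 18 in place of 15.

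CYP1A1, the most inducible AHR target, had 6.71, 5.71 and 5.98 CPM with high-dose Menthae Herba against 0.336, 0.576 and 0.55 CPM in vehicle libraries, a log2 change of 3.62 ± 0.26 (edgeR adjusted p = 1.41e-14). With high-dose Guibi-tang, where ALDH3A1 and UGT1A6 rose, CYP1A1 had 0.724, 0.909 and 0.869 CPM. All lay above every vehicle library, but CYP1A1 was not called. These values rest on few reads, 20, 39 and 19 counts against 10, 22 and 18 in vehicle libraries. CYP1B1 had 43.9, 45.6 and 48.9 CPM with high-dose Guibi-tang, against 45.2, 44.6 and 45 CPM in vehicle libraries, and was not called either.

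Of 14 other AHR targets, 11 were measured. The counts of this and the following lists stand beside the 8.57% of all genes called with high-dose Menthae Herba, 0.499% with Saposhnikoviae Radix, 4.28% with Saengmaek-san, 2.26% with Guibi-tang, 14.5% with Soyo-san and 7.4% with Okbyeongpung-san. At the high dose against vehicle 6 of these 11 rose and 0 fell with Menthae Herba, a median log2 difference of 0.27 beside a median of about 0 over all genes. The counts of higher and lower calls were 4 and 0 with Saposhnikoviae Radix, 5 and 0 with Saengmaek-san, 3 and 1 with Guibi-tang, 6 and 1 with Soyo-san, and 4 and 1 with Okbyeongpung-san. ABCG2, a xenobiotic efflux pump, was called higher in all 6, by 0.30 with Menthae Herba, 0.26 with Saposhnikoviae Radix, 0.18 with Saengmaek-san, 0.25 with Guibi-tang, 0.23 with Soyo-san and 0.20 with Okbyeongpung-san. The lower call was EREG, an EGF receptor ligand, in all 3 formulas that had one: it fell by 0.29 on the log2 scale with Okbyeongpung-san (edgeR adjusted p = 0.00466), by 0.21 with Soyo-san (0.0274) and by 0.23 with Guibi-tang (0.0445), but rose by 0.27 with Menthae Herba (0.00411). ABCG2 and EREG were followed over all extracts after their values were seen.

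Of 17 NRF2 targets, all measured, 15 rose with high-dose Menthae Herba, 10 with Saposhnikoviae Radix, 10 with Saengmaek-san, 14 with Guibi-tang, 14 with Soyo-san and 7 with Okbyeongpung-san, and 0 fell in any of the 6. Their median log2 differences were 0.55, 0.30, 0.29, 0.41, 0.31 and 0.18 in that order. The glutathione synthesis genes GCLM and GCLC rose by 0.97 ± 0.07 and 0.64 ± 0.06 with Menthae Herba (edgeR adjusted p = 2.94e-13 and 5.17e-12). GCLC rose by 0.51 ± 0.06 with Guibi-tang (5.06e-09), the extract whose ALDH3A1 and UGT1A6 rose without a call for TIPARP. NQO1 belongs to this list and to that of the other AHR targets.

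Of 8 other UGT1A genes, 3 rose with high-dose Menthae Herba, led by UGT1A1, the bilirubin-conjugating enzyme, by 0.49 ± 0.06 (edgeR adjusted p = 2.39e-08), and 3 rose with Guibi-tang, 3 with Saengmaek-san, 2 with Soyo-san, 1 with Saposhnikoviae Radix and 0 with Okbyeongpung-san. Of 16 measured other aldehyde dehydrogenases, 3 rose and 2 fell with Menthae Herba. ALDH3A2, the fatty aldehyde dehydrogenase beside ALDH3A1 on chromosome 17, rose by 0.51 ± 0.05 (1.24e-11) and the retinaldehyde-oxidising ALDH1A3 by 0.62 ± 0.07 (2.13e-08), while the mitochondrial ALDH5A1 changed by -0.37 ± 0.09 (0.00716). Of 14 other ADP-ribosyltransferases 0 rose and 1 fell with Menthae Herba (PARP10, -0.28 ± 0.09, adjusted p = 0.0355), whereas TIPARP rose. With Soyo-san 3 of the 14 rose and 2 fell, and with Okbyeongpung-san 2 rose.

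Of 10 measured partners and chaperones of AHR, 1 was called with high-dose Menthae Herba, the HSP90 co-chaperone PTGES3 (p23), at 0.15 ± 0.04 (edgeR adjusted p = 0.0306), a share close to the 8.57% of all genes called there. With Soyo-san, where 14.5% of all genes were called, 2 rose and 3 fell. Those that fell included the coactivators CREBBP (-0.20 ± 0.06, edgeR adjusted p = 0.011) and EP300 (-0.21 ± 0.06, 0.0115). IL4I1, an amino acid oxidase that makes AHR ligands from tryptophan, rose with Guibi-tang by 1.32 ± 0.30 (0.00877), Soyo-san by 1.5 ± 0.31 (7.19e-04) and Okbyeongpung-san by 1.67 ± 0.30 (3.30e-04), the only call among 4 measured enzymes of that kind at the high dose. IL4I1 showed no order by dose: with Guibi-tang it averaged 1.07 ± 0.15, 1.2 ± 0.139 and 1.03 ± 0.0216 CPM at the low, medium and high dose (SD, n = 3 each), against 0.409 ± 0.07 CPM in vehicle. Of 12 targets of the hypoxia-inducible factors, the other partners of ARNT, 2 rose with Menthae Herba, the glucose transporter SLC2A1 by 0.30 ± 0.04 (2.42e-06) and the glycolytic regulator PFKFB3 by 0.23 ± 0.04 (2.07e-04). The median log2 difference of these 12 was 0.15 with Menthae Herba and 0.00 to 0.09 with the other extracts. The lists were counted without the term for the numbering, and its part in the counts of Soyo-san and Okbyeongpung-san was not tested. Of 10 colonic epithelial markers 1 rose and 5 fell with Menthae Herba, with VIL1 at -0.23 ± 0.04 (4.08e-05). Their summed level was 11500 to 12100 CPM with high-dose Menthae Herba and 11000 to 11700 CPM in vehicle libraries. With the other extracts 0 to 3 of the 10 rose and 0 to 3 fell. Whether that shift has a part in the members' changes was not tested.

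**Figure D4:**
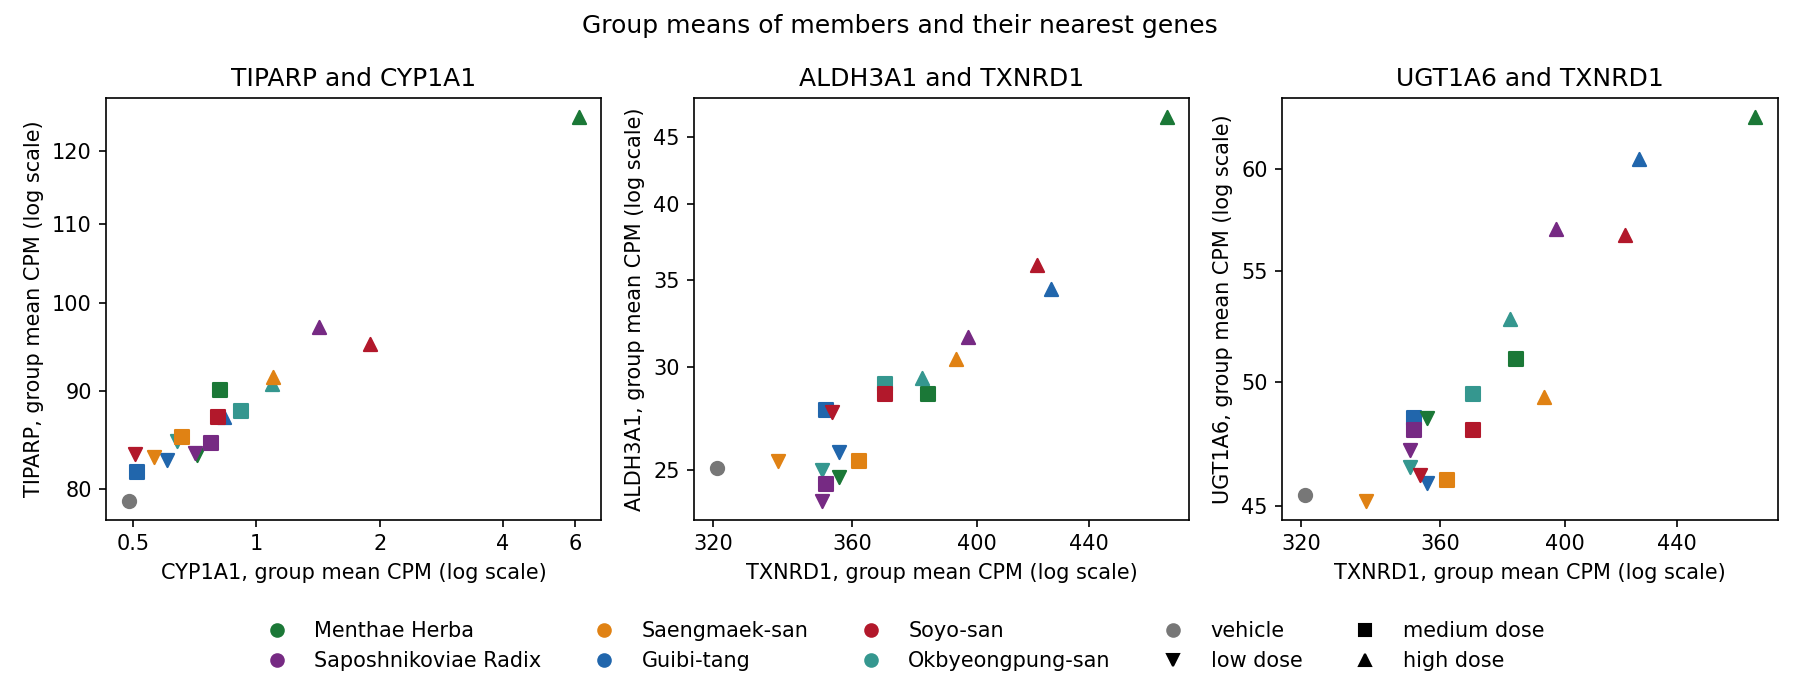
Group mean CPM of TIPARP against CYP1A1 and of ALDH3A1 and UGT1A6 against TXNRD1, on log axes, for the 19 groups (colour for extract, shape for dose). High-dose Menthae Herba is at the upper right of each panel; Guibi-tang at the high dose lies among the medium doses for TIPARP and second for UGT1A6.

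The genes whose group means were most like those of each member were sought among 11572 protein-coding genes over the 19 groups, as a description, since groups share extracts, doses and the numbering. TIPARP was nearest to CYP1A1 (Pearson r = 0.979), the ephrin receptor gene EPHB6 (0.96) and CYP1B1 (0.952). With the numbering taken out CYP1A1 was still first (0.964). ALDH3A1 was nearest to TNFRSF21 (0.936), TXNRD1 (0.935), which encodes thioredoxin reductase, and ME1 (0.935), which encodes malic enzyme. With the numbering taken out its first was the aldo-keto reductase AKR1B10 (0.961). UGT1A6 was nearest to the aldo-keto reductase AKR1C2 (0.947), TXNRD1 (0.932) and AKR1B10 (0.922). High-dose Menthae Herba is the extreme point of all 3.

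For the other 3 members the likeness was lower. Genes near AHR included MON2 (0.895) and SLC35F5 (0.89), and SKIL (0.832) once the numbering was taken out. ARNT was nearest to ALDH5A1 (0.849), TP53I11 (0.845) and MUC2 (0.84), and AHRR to PLEC (0.876), MYLK (0.862) and COL18A1 (0.857). With the numbering taken out the ARNT values became 0.795, 0.676 and 0.687 in that order, and other genes were nearer. PLEC was still first for AHRR (0.845). Among the members themselves, over the same 19 groups, r was 0.892 for TIPARP and ALDH3A1, 0.895 for ALDH3A1 and UGT1A6 and 0.797 for TIPARP and UGT1A6. AHR had r = 0.164 with TIPARP, and ARNT had r = -0.708 with it, or -0.539 with the numbering taken out.

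Soshiho-tang, with 1 later-numbered library per dose, entered no test, and its intervals (exact 95%) cover counting error only. TIPARP had 105 CPM (101 to 110) at the low, 127 CPM (123 to 131) at the medium and 215 CPM (209 to 221) at the high dose, where the vehicle libraries had 77.9 to 80.6 CPM. Already the low-dose library lay above every vehicle library. ALDH3A1 had 29.3, 35.1 and 86.4 CPM (82.6 to 90.4 at the high dose) and UGT1A6 48.7, 51.4 and 72.8 CPM (69.3 to 76.4). AHRR had 7.57, 7.16 and 11.8 CPM (10.4 to 13.3), the only group in which the repressor passed 8.08 CPM, the highest of the other 57 libraries.

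All 4 of these genes were higher in the high-dose Soshiho-tang library than in each of the 57 replicated libraries. ARNT, at 31.5, 32.4 and 27.8 CPM (25.6 to 30 at the high dose), and AHR, at 122, 120 and 110 CPM (106 to 115), were lower there than in each of them. In the replicated groups AHR was 0.11 ± 0.03 (SE, log2) lower in later-numbered libraries, and the part of the numbering in the Soshiho-tang values was not tested. CYP1A1 had 1.69, 4.31 and 160 CPM in the 3 libraries. The TIPARP level of high-dose Soshiho-tang was 2.72 times the vehicle mean, and that of ALDH3A1 3.44 times, differences with no replicate check.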

How the data were processed

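The 60 libraries were made from total RNA (RNA integrity number above 7) with the MGIEasy directional mRNA kit and read as 100 bp pairs, per the labels' protocols. The authors deposited 1 table of expected counts per Ensembl gene. FastQC 0.11.9, Trim Galore 0.6.5, STAR 2.7.3a, RSEM 1.3.3 and GRCh38 are named in the submitters' processing notes. Neither the strand setting nor the annotation release is given in the sources used here. RSEM divides reads that match several genes by estimate, which bears on UGT1A6 and AHRR: 27.7% of the deposited expected counts above 0 were not whole, and they were rounded here.

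From these counts, genes kept by filterByExpr (17049 genes, 99.95% of all counts) were scaled by TMM and fitted with edgeR 4.0.16 (quasi-likelihood, robust, R 4.3.3) in 1 model over the 57 libraries of the 19 groups of 3, with 38 residual degrees of freedom. The 48 comparisons were each adjusted by Benjamini-Hochberg over all 17049 genes, and "called" means an adjusted p below 0.05. "Adjusted p" in the text is always this edgeR value unless another tool is named. Lists were counted in the same fit. DESeq2 1.42.0 was an alternative, and log2 CPM used a prior count of 2. The edgeR test against vehicle was run on simulated counts with known changes in high-dose Menthae Herba alone and no shift between the parts of the numbering. The other kinds of comparison were not simulated.

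The members, lists and tests were chosen with earlier results of these data known. The genes named are the 6 members, CYP1A1, CYP1B1 and NQO1, up to 3 called genes of smallest p per list and comparison, and the 3 nearest genes of each member. A few genes that this rule names are not reported here. Members were named from a table of gene names (41209 identifiers matched), and coordinates come from GENCODE release 29 (57055 identifiers matched). Replicate pairs differed by more than sampling noise (chi-square over degrees of freedom 1.89 to 26.1), so each library was counted once.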

Additional observations from a re-analysis of the deposited data

Results flagged for a closer look

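The dose response of TIPARP (high minus low dose, log2) was larger with Menthae Herba than with each of the 5 other replicated extracts by the interaction test. The difference was 0.36 from Saposhnikoviae Radix, 0.44 from Saengmaek-san, 0.51 from Guibi-tang, 0.39 from Soyo-san and 0.49 from Okbyeongpung-san. For ALDH3A1 it was 0.65 from Saengmaek-san and 0.68 from Okbyeongpung-san. All these differences share the same Menthae Herba libraries. In fits on the groups compared alone those of TIPARP from Saposhnikoviae Radix, Saengmaek-san and Soyo-san were not called (edgeR adjusted p = 0.111, 0.0568 and 0.252). The TIPARP difference from Saposhnikoviae Radix stayed called in 24 of the 57 fits that left out 1 library.

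The single Soshiho-tang libraries, which entered no test, held levels above all vehicle libraries and at least 1.5 times the vehicle mean. At the high dose TIPARP had 215 CPM, ALDH3A1 86.4 CPM, UGT1A6 72.8 CPM and AHRR 11.8 CPM, and at the medium dose TIPARP had 127 CPM.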

How the results depend on the processing

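Of the 31 called member values over the 4 kinds of comparison, every sign held under each alternative run. DESeq2's size factors kept 31 calls and gained 1, the replicate block kept 31 and gained 6, no filter on low counts kept 30 and gained 12, DESeq2's own test kept 30 and gained 3, the term for the part of the numbering kept 28 and gained 1, and a fit on the groups compared alone kept 21 and gained 14. The earlier-numbered libraries alone kept 18 of the 18 calls they could test and gained 8. The count against vehicle was 15 and became 14 in the 60 tests that the earlier-numbered libraries allow, where the fit on all libraries called 9; the count for high against low dose was 6 and became 5 in 18 such tests, where that fit called 3. Without a filter on low counts 11 of the 36 tests of dose were called, and 2 members, in place of 1, between the parts of the numbering; with the replicate block 2 members were called between the parts. Leaving out 1 library at a time gave 10 to 18 calls against vehicle, 4 to 9 for dose, 2 to 4 between extracts, 3 to 10 for dose responses that differ between extracts, 4 to 5 over all groups and 1 between the parts; the cause of these shifts was not tested. The labels tie no replicate number to a shared culture or day. In 1 of 33 comparisons, high-dose Guibi-tang against Saengmaek-san, same-numbered libraries deviated together in all 3 pairs (correlations of 0.144, 0.129 and 0.286). In both of these groups replicates 1 and 2 were earlier-numbered and replicate 3 later-numbered. The part of the numbering was not taken out of the deviations, so replicate number and part cannot be told apart there. The replicate block moved the count against vehicle to 19, the count for dose to 8, and neither that between extracts, 3, nor that of dose responses, 7. Each library's correlations with the libraries of other groups were also averaged by replicate number. Of the 3 averages, that of its own number was the highest for 32 of 57 libraries. The sum of AHRR with a readthrough row was not run. AHRR, at 111 to 275 counts per library, is the member whose precision depth limits most. Vehicle was present in the earlier-numbered part alone, so for Soyo-san and Okbyeongpung-san the numbering is separated from the extract only through the Saengmaek-san and Guibi-tang libraries on both sides.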
